A study of Mus musculus with 2 samples.

Results

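The Ms4a genes encode a family of small membrane proteins, many of them on immune cells. The 10 members described here were Ms4a1, Ms4a2, Ms4a4a, Ms4a4b, Ms4a4c, Ms4a6b, Ms4a6c, Ms4a6d, Ms4a7 and Ms4a8a. They were chosen by name out of 24785 genes listed in either table, with earlier results of these data known. All have a column in both count tables. So do Ms4a3, Ms4a4d, Ms4a14, Ms4a15 and Ms4a18, which were not among the members, so the 10 are not the whole family. Another 10 columns, the remaining Ms4a genes and the related Tmem176a and Tmem176b, were read beside them. Best known in the family are Ms4a1, the CD20 antigen of B cells, and Ms4a2, the beta chain of the high-affinity IgE receptor of basophils and mast cells. Most other members are less studied, and several are near copies of one another that lie side by side in the genome.

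All cells came from the lungs of wild-type C57BL/6N mice and were sorted as living CD45+ cells. Bleomycin (BLM), which causes lung injury followed by scarring, was given into the trachea, and lungs were taken on day 15. The methods give 10 to 16 weeks as the age of mice given bleomycin. The other mice were naive and received no treatment, and their age is not given separately. Each group was 1 library made from the pooled cells of 3 mice, with no map from cells to mice. The group and the library therefore cannot be told apart and no test between groups was possible. Any difference between the libraries in sorting or sequencing cannot be told apart from the group either. All intervals below are 95% intervals that cover counting error only.

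The BLM library held 4714 barcodes and 22490782 unique molecular identifiers (UMIs, each 1 captured transcript), and the naive library 4062 barcodes and 18019004 UMIs. After quality filters and removal of likely doublets, 4391 BLM and 3808 naive cells were kept, with a median of 2380 and 2699.5 UMIs. The libraries shared 17 barcodes among the kept cells. Cells were sorted into classes by clustering without any family gene, so that the class of a cell and its Ms4a level do not rest on the same genes. A level is the sum of a gene's UMIs over the cells of a class, per 1000000 UMIs of those cells (CPM). Lower RNA content per cell and a smaller share of expressing cells both lower such a sum, so the share of cells with a UMI is given where it matters.

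The members lie within 556.249 kb of chromosome 19 (GRCm38), from 11067471 to 11623719, 5 on each strand. Ms4a8a, Ms4a1 and Ms4a7 stand at the low end on the minus strand. Ms4a4a, Ms4a4c, Ms4a4b, Ms4a6c and Ms4a6b follow in that order on the plus strand between 11375523 and 11531256, and Ms4a6d and Ms4a2 close the row on the minus strand. The closest relatives in coding sequence were Ms4a4b (chr19:11443553-11467055) and Ms4a4c (chr19:11404770-11427246), whose coding sequences were both 681 bases long and 91.8% identical. Ms4a6b (chr19:11516512-11531256) was 80.9% identical to Ms4a6d and 76% identical to Ms4a6c (chr19:11469366-11482192), and Ms4a6c and Ms4a6d were 69.6% identical. Ms4a4a was 63.3% identical to Ms4a4b and 63.1% to Ms4a4c, and the other pairs of members were at or below 54.7%.

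Ms4a4b and Ms4a4c were the members closest in coding sequence but were highest in different cells. The 250 bases before their RefSeq starts (GRCm38.p6, plus strand, 5′ to 3′) are therefore printed here. The windows are chr19:11443308-11443557 for Ms4a4b and chr19:11407411-11407660 for Ms4a4c. Capitals mark GAGGAA, the core letters that many PU.1 sites hold, searched on both strands.
Ms4a4b: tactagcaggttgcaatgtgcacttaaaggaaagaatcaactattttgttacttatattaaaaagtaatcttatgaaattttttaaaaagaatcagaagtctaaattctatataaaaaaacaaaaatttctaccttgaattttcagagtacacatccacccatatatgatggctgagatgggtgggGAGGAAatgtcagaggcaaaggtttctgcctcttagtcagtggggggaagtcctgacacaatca
Ms4a4c: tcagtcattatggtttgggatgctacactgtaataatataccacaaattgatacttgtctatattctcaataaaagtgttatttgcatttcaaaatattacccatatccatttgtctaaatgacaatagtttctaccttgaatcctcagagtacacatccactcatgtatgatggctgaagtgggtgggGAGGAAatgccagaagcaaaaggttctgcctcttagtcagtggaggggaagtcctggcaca
The windows were 70.3% identical, against 51.5% for the next pair of members. GAGGAA stood 64 bases before the start in Ms4a4b and 61 bases before it in Ms4a4c. It was found in 2 of the 8 members with a RefSeq window and in 23.3% of all 32817 promoters of the same length. The match describes these letters only, and binding was not tested. Despite this likeness the genes were highest in different cells, Ms4a4b in NK and T cells and Ms4a4c in monocytes.

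Where each member was found is shown first, over 13 named classes. A member was said to lead in a class when its level there was 2-fold or more above the next class over both libraries and the interval of that ratio excluded 0. By this rule 5 of 10 members led in 1 class: Ms4a1, Ms4a2, Ms4a4c, Ms4a7 and Ms4a8a. Over all 12840 genes tested the share was 13.8%. The other members were shared by neighbouring classes.

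**Figure D1:**
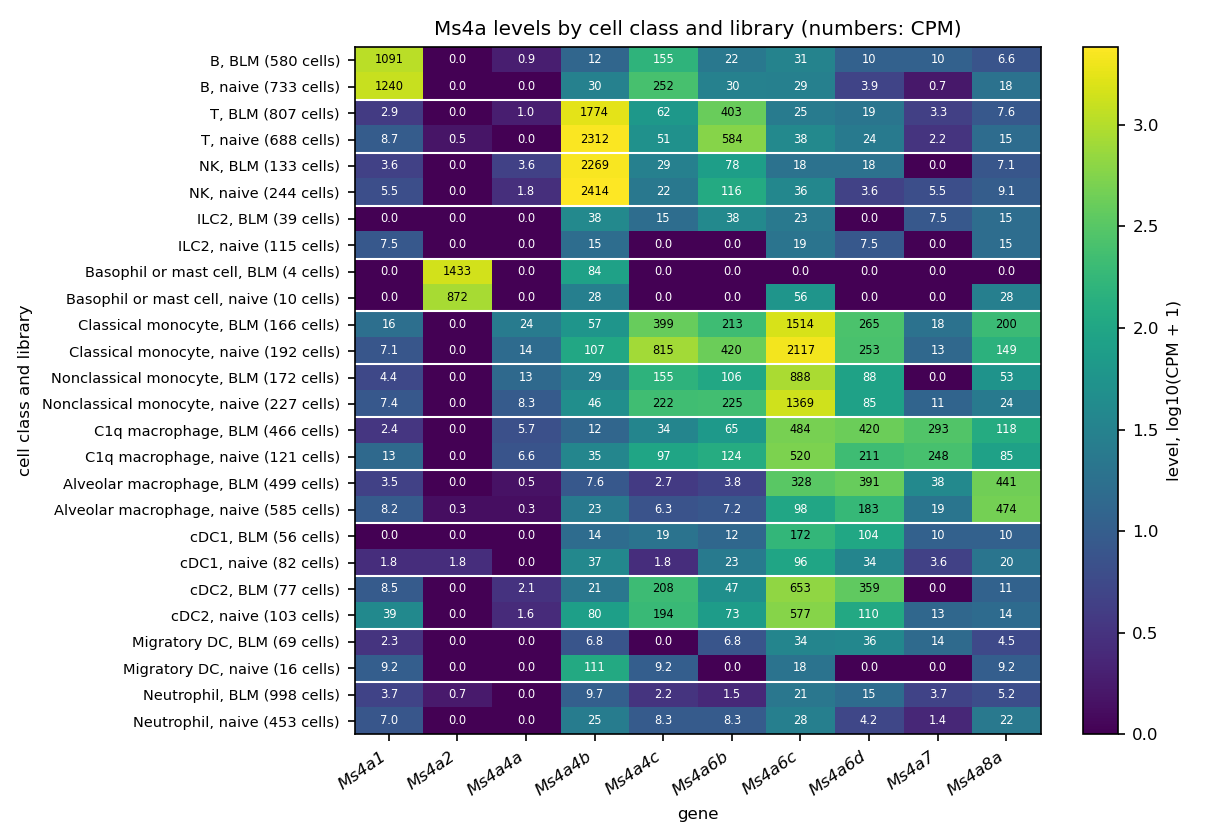
Heat map of the 10 Ms4a genes (columns) in 13 named cell classes of the BLM and naive libraries (rows, with cells per class); colour is log10(CPM + 1) and the printed number is CPM. Lymphoid levels lie mainly in the Ms4a1, Ms4a4b and Ms4a6b columns, and in B cells also in the Ms4a4c column (155 and 252 CPM). Myeloid levels lie in the columns from Ms4a4c to Ms4a8a, and neutrophils hold little of any member.

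Among lymphocytes, Ms4a1 was the B cell gene. Its level in B cells was 1091 CPM [1029, 1156] in the BLM library and 1240 CPM [1185, 1297] in the naive library, with a UMI in 73.1% and 79.4% of B cells. In neutrophils, which should lack it, the shares were 0.501% and 1.10%, at median depths of 1329 and 1580 UMIs against 1589 and 1879 in B cells. A small cluster led by the antibody genes Igkc, Ighm and Mzb1, left unnamed because its plasma cell score (2.256) and B cell score (2.213) were close, held 1883 CPM in the BLM and 1420 CPM in the naive library. The log2 ratio of BLM over naive in B cells was -0.18 [-0.29, -0.08], a small difference whose sign changed when the mitochondrial limit was lowered.

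Ms4a2 was read in very few cells. The 4 BLM and 10 naive cells gated as basophils or mast cells held 17 and 31 of its UMIs, in 3 and 8 cells. These 48 UMIs were nearly the whole of its 53 UMIs over both libraries. The log2 ratio of BLM over naive, 0.72 [-0.23, 1.61], includes 0 and rests on too few cells to be compared further.

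Ms4a4b, a gene of T and NK cells, was highest in NK cells and close behind in T cells. NK cells held 2269 CPM [2096, 2452] in the BLM and 2414 CPM [2286, 2547] in the naive library, with a UMI in 94.7% and 95.1% of cells. B cells, taken as background for this gene, showed a UMI in 2.07% and 5.59% of cells. NK cells exceeded T cells by only 0.22 on the log2 scale over both libraries, whereas T cells exceeded classical monocytes by 4.56. ILC2, the innate lymphocytes that make type 2 cytokines, held 37.5 and 15.1 CPM.

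Within T cells the level of Ms4a4b depended on the subset. Naive CD4 cells held 2546 CPM [2376, 2724] in the BLM and 2780 CPM [2638, 2927] in the naive library. CD8 cells held 2406 and 2593 CPM, and cytotoxic T cells 2244 and 2550 CPM. Gamma delta T cells stood far below these subsets in both libraries, at 170 CPM [118, 236] and 151 CPM [104, 211]. These subsets differed little between the libraries, with log2 ratios between -0.18 and 0.17.

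Regulatory T cells (Tregs), which restrain immune responses, were the subset with the largest Ms4a4b ratio between the libraries among the 6 subsets compared. In the naive library Ms4a4b stood at 1874 CPM [1588, 2197] in 25 Tregs, and in the BLM library at 279 CPM [216, 354] in 74 Tregs. The log2 ratio was -2.75 [-3.19, -2.33], from 67 BLM and 152 naive UMIs. The median Treg held 6 UMIs of Ms4a4b in the naive library and 0 in the BLM library. The share of Tregs with a UMI was 80% [59.3, 93.2] in the naive and 32.4% [22, 44.3] in the BLM library, and 66.1% and 18.6% after each cell was thinned to 1000 UMIs.

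Ms4a6b, a related T cell gene, was lower in the same cells. Its level in Tregs was 678 CPM [511, 883] in the naive and 171 CPM [122, 231] in the BLM library, a log2 ratio of -1.99 [-2.61, -1.38]. Neither gene was detected in 32 of 74 BLM Tregs (43.2%) and in 1 of 25 naive Tregs, and both were detected in 12.2% and 68%. Gm8369, an annotated neighbour of the family that was added after its values were seen, was also lower in Tregs, at 95.7 CPM in the BLM and 247 CPM in the naive library, with a log2 ratio of -1.37 [-2.30, -0.43]. Tff1, the gene around which the study was built, and all family genes were left out when Tregs were grouped. Gm8369 was not among the genes left out.

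The makeup of the Treg cluster moved with these levels. The summed Treg marker list stood at 5928 CPM in the BLM and 4180 CPM in the naive library with none of its 6 genes at 0. The activated CD4 list stood at 4223 and 2429 CPM, and the naive CD4 list at 795 and 1985 CPM. The ILC2 list, which shares Il1rl1, Areg and Klrg1 with the leading genes of the Treg cluster, stood at 5134 and 1899 CPM. The part of these differences in the Ms4a4b and Ms4a6b ratios was not tested. With doublets kept the Treg ratio of Ms4a4b was -2.07, and with Tregs gated by markers on 91 BLM and 40 naive cells it was -2.76. Without integration only 8 naive Tregs were found and no ratio was computed.

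In activated CD4 cells Ms4a4b stood at 1327 CPM [1217, 1445] in the BLM and 2470 CPM [2193, 2772] in the naive library, a log2 ratio of -0.90 that did not reach 2-fold. Under the marker gate that ratio was 0.09. The cytotoxic marker list in this cluster stood at 1300 CPM in the BLM and 9485 CPM in the naive library, so the cluster did not hold the same mixture in both. Ms4a6b in cytotoxic T cells was lower in the BLM library, at 135 CPM against 329 CPM, from 13 and 58 UMIs. Naive CD4 cells held the same Ms4a6b level within counting error, 821 CPM [726, 925] and 806 CPM [731, 888].

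**Figure D2:**
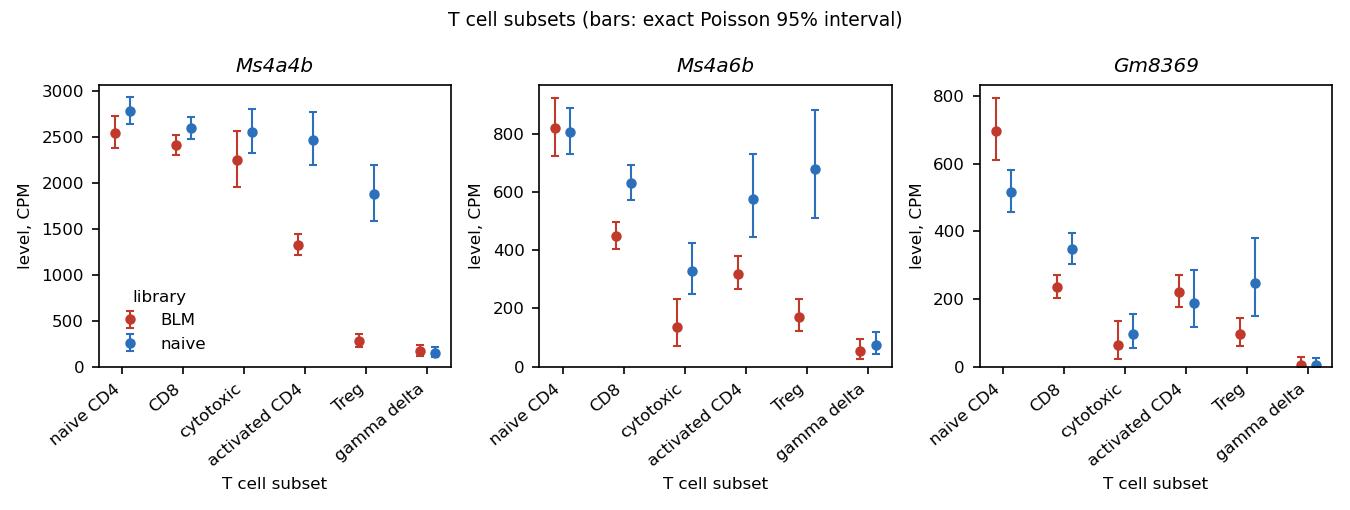
Level in CPM (vertical axis) of Ms4a4b, Ms4a6b and the neighbouring gene Gm8369 in 6 T cell subsets (horizontal axis) of the BLM (red) and naive (blue) libraries; bars are exact Poisson 95% intervals. In Tregs the BLM point lies below the naive point for all 3 genes, and in naive CD4 cells the intervals of Ms4a6b overlap.

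Ms4a4c, the near copy of Ms4a4b, was highest in classical monocytes and was also held by B cells, dendritic cells and some T cell subsets. Classical monocytes, the blood cells that enter injured tissue, held 399 CPM [351, 452] in the BLM and 815 CPM [755, 878] in the naive library, with a UMI in 63.3% and 87.0% of cells. Over both libraries classical monocytes exceeded B cells by 1.59 on the log2 scale, although within the BLM library their lead over the next class, cDC2 (conventional type 2 dendritic cells), was 0.94. B cells held 155 and 252 CPM, nonclassical monocytes 155 and 222 CPM, and cDC2 208 and 194 CPM. Among T cell subsets, cytotoxic T cells held 166 and 108 CPM, from 16 and 19 UMIs. CD8 T cells held 118 and 67.4 CPM, from 95 and 46 UMIs. B cells, nonclassical monocytes and cDC2 followed one another in steps of 0.07 and 0.01 on the log2 scale over both libraries, so their order was not resolved. Neutrophils showed a UMI in 0.301% and 1.32% of cells.

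The other member shared by lymphoid and monocyte classes was Ms4a6b. Beside its T cell levels it reached 213 CPM [178, 253] in BLM and 420 CPM [377, 466] in naive classical monocytes. T cells exceeded classical monocytes by 0.55 on the log2 scale. NK cells, which held as much Ms4a4b as T cells, held 78.5 and 116 CPM of Ms4a6b.

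Among myeloid members, Ms4a6c was highest in monocytes. Classical monocytes held 1514 CPM [1419, 1615] in the BLM and 2117 CPM [2020, 2218] in the naive library, and nonclassical monocytes 888 and 1369 CPM. Dendritic and macrophage classes followed, with cDC2 at 653 and 577 CPM and C1q macrophages, the macrophages that make complement C1q, at 484 and 520 CPM. A UMI of Ms4a6c was found in 96.4% and 99.5% of classical monocytes, against 4.83% and 5.59% of B cells.

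Ms4a4a followed the same classes at a far lower level. It had 87 UMIs in all, and its highest level was in classical monocytes, at 24.4 CPM [13.7, 40.3] and 14.3 CPM [7.38, 24.9]. Nonclassical monocytes and C1q macrophages held between 5.68 and 13.3 CPM. The lead of classical over nonclassical monocytes was 0.92 [-0.04, 1.94] on the log2 scale, so the order of these classes was not resolved at this depth.

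The macrophage classes shared Ms4a6d, Ms4a7 and Ms4a8a in different proportions. Ms4a7 was the C1q macrophage gene, at 293 CPM [278, 309] in the BLM and 248 CPM [214, 287] in the naive library, 3.30 above alveolar macrophages on the log2 scale over both. It was found in 45.5% and 44.6% of C1q macrophages and reached 46 UMIs in a single BLM cell. Ms4a8a was the alveolar macrophage gene, at 441 CPM [425, 457] and 474 CPM [456, 491], with a UMI in 94.0% and 94.9% of alveolar macrophages. B cells, at a far lower median depth of 1589 and 1879 UMIs against 12439 and 9942, showed Ms4a8a in 1.21% and 3.68% of cells. Classical monocytes held 200 and 149 CPM of Ms4a8a.

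Ms4a6d was spread over both macrophage classes, monocytes and cDC2. In the BLM library it stood at 420 CPM [402, 440] in C1q and 391 CPM [376, 407] in alveolar macrophages. In the naive library classical monocytes came first at 253 CPM [220, 290], followed by C1q macrophages at 211 CPM [180, 247], a gap of 0.26 [-0.04, 0.57] on the log2 scale that includes 0.

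Single cells often held several members. Classical monocytes showed 5 or more members in 17.5% of BLM and 33.3% of naive cells, and up to 7 in 1 cell. Alveolar macrophages showed 3 or more members in 89.2% of BLM and 61.7% of naive cells. Ms4a6c and Ms4a6d were detected together in 88.8% of BLM and 44.3% of naive alveolar macrophages. In neutrophils no member was detected in 92.6% and 87.0% of cells. These shares depend on depth, which was higher in BLM than in naive alveolar macrophages.

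The genes whose levels over 41 class-by-library sums were most like those of 9 members, by Pearson correlation of log2(CPM + 10), differed from member to member. The values describe these sums, which share libraries and classes. Nearest to Ms4a1 were Iglc2 (0.97), Iglc3 (0.97) and Cd79a (0.96), of which Iglc2 and Iglc3 encode antibody light chains and Cd79a part of the B cell receptor. Ms4a4b was nearest to Txk (0.94), Sh2d1a (0.93) and Gm2682 (0.93), of which Txk and Sh2d1a encode signalling proteins of T and NK cells. Ms4a7 was nearest to C1qc (0.86), Pf4 (0.85) and C3ar1 (0.85), and Ms4a8a to Chil3 (0.96), Chil4 (0.92) and Lpl (0.92). Ms4a6d was nearest to Fcgr1 (0.90), a receptor for IgG, Fam129b (0.88) and Ctss (0.88). Ms4a6c was nearest to Acer3 (0.91), Ifi207 (0.89) and Tifab (0.89). Lower values were found for Ms4a6b with Frat2 (0.83), Ifi206 (0.78) and Ifi47 (0.76), and for Ms4a4c with Plac8 (0.76), Hlcs (0.67) and Atf4 (0.67). For Ms4a2, whose own class was too small to enter the sums, the values were 0.66 for Scgb1a1, 0.65 for Cd207 and 0.48 for Gpr141b.

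Between members the correlation was 0.82 for Ms4a4b and Ms4a6b, 0.79 for Ms4a6c and Ms4a6d, 0.74 for Ms4a4a and Ms4a6c and 0.73 for Ms4a6d and Ms4a8a, and the lowest was -0.43 for Ms4a4b and Ms4a7. For the pairs closest in coding sequence it was 0.15 (Ms4a4b and Ms4a4c), -0.09 (Ms4a6b and Ms4a6d) and 0.04 (Ms4a6b and Ms4a6c).

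The comparison of BLM with naive was made for 72 pairs of a member and a class that had 20 or more UMIs over both libraries and 25 or more cells in each. A pair was called when its levels differed by 2-fold or more and the interval of the log2 ratio excluded 0. By this rule 6 pairs were higher and 18 lower in the BLM library. Over all 91252 gene and class pairs 3.23% were higher and 5.37% lower. Of the 18 lower pairs, 13 had a level under 100 CPM in both libraries. When a pair also had to stand 2-fold or more above B cells, or above neutrophils for Ms4a1 and Ms4a4c, which B cells hold, 5 higher and 8 lower pairs remained. This requirement and its reference classes were chosen after the values were seen. The 10 lower pairs left out were Ms4a4b in alveolar macrophages (7.63 and 23.4 CPM), C1q macrophages, neutrophils, cDC1 and B cells, Ms4a1 in both macrophage classes, Ms4a4c in alveolar macrophages, and Ms4a8a in neutrophils and B cells. Of these, Ms4a4b and Ms4a8a in B cells could not pass, because B cells were the reference class for both genes. The higher pair left out was Ms4a6d in neutrophils (20 and 3 UMIs). The B cell marker list in alveolar macrophages, at 86.1 CPM in the BLM and 164 CPM in the naive library, was lower in the BLM library as well.

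**Figure D3:**
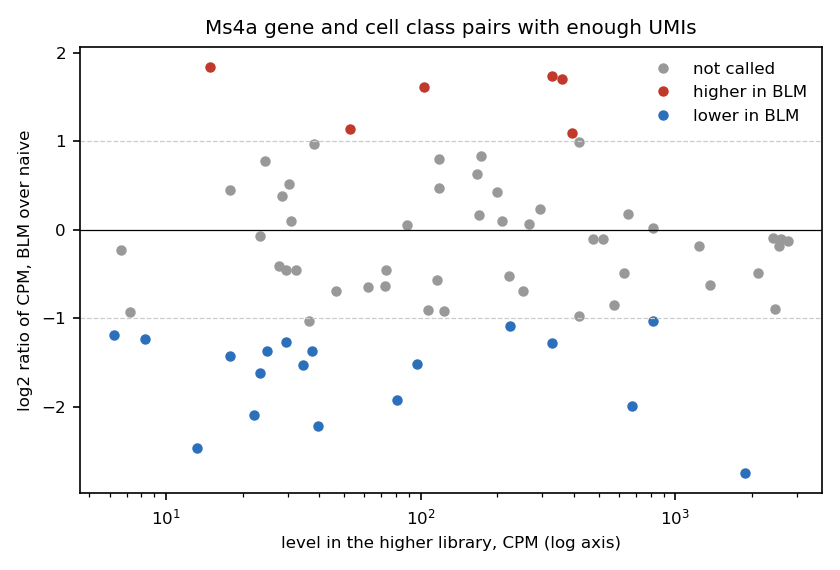
Log2 ratio of CPM, BLM over naive (vertical axis), against the level in the higher library in CPM (horizontal log axis) for the 72 pairs of a member and a class; red points were called higher, blue lower and grey neither, and dashed lines mark 2-fold. Of the 18 blue points, 13 lie under 100 CPM, as do 2 of the 6 red points.

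In alveolar macrophages 2 members were higher. Ms4a6c rose from 98.3 CPM [90.6, 106] in the naive to 328 CPM [315, 343] in the BLM library, a log2 ratio of 1.74 [1.61, 1.87]. Ms4a6d rose from 183 CPM [172, 194] to 391 CPM [376, 407], a log2 ratio of 1.10 [0.996, 1.20]. The share of cells with Ms4a6c was 53.5% in the naive and 92.2% in the BLM library, and 9.13% and 27.8% after thinning to 1000 UMIs. Ms4a8a stood at nearly the same level in both, with a log2 ratio of -0.10 [-0.18, -0.03], and Ms4a7 at 19.4 and 38.0 CPM did not reach 2-fold. Of all genes tested in this class 5.91% were higher and 9.55% lower.

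The alveolar macrophage cluster did not hold the same mixture in both libraries. Its alveolar marker list stood at 3000 CPM in the BLM and 5995 CPM in the naive library, its C1q list at 1641 and 125 CPM and its classical monocyte list at 4329 and 553 CPM. Cells were therefore also gated one by one on the same markers, a split added after the values were seen. Among the 499 BLM cells of this cluster 89 passed the alveolar gate, 211 the C1q gate and 93 no gate. The remaining BLM cells passed the gate of another class and are not described here. In the naive library 575 of 585 cells passed the alveolar gate. In cells that passed the alveolar gate Ms4a6c was 259 CPM in the BLM and 98.4 CPM in the naive library, and Ms4a6d 369 and 182 CPM. In these cells Ms4a7 was 18.9 and 19.4 CPM, while Ms4a8a was 649 and 473 CPM. The BLM cells of this cluster that passed the C1q gate held 351 CPM of Ms4a6c, 389 CPM of Ms4a6d, 53.4 CPM of Ms4a7 and 321 CPM of Ms4a8a.

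**Figure D4:**
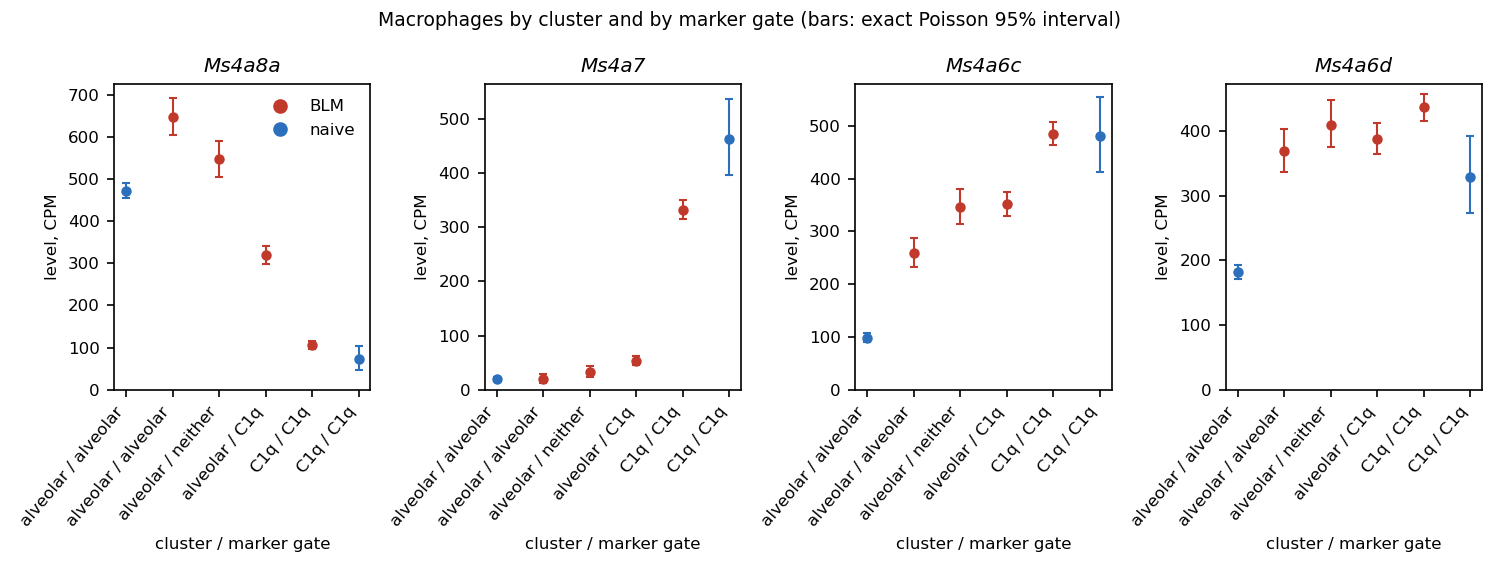
Level in CPM (vertical axis) of Ms4a8a, Ms4a7, Ms4a6c and Ms4a6d in macrophages split by cluster and by marker gate (horizontal axis, cluster before the stroke and gate after it), for groups of 25 or more cells of the BLM (red) and naive (blue) libraries; bars are exact Poisson 95% intervals. Cells that passed the gate of a class other than these macrophages are not shown. Ms4a8a falls and Ms4a7 rises from alveolar to C1q cells, and among cells that are alveolar by both, BLM levels of Ms4a6c (259 CPM) and Ms4a6d (369 CPM) lie above naive levels (98.4 and 182 CPM).

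Ms4a6d was higher across several other classes. In C1q macrophages it stood at 420 CPM [402, 440] in the BLM and 211 CPM [180, 247] in the naive library, a log2 ratio of 0.99 [0.76, 1.24], just short of 2-fold and so not called. With C1q macrophages gated by markers that ratio was 0.40 [0.14, 0.66]. In cDC2 it was 359 CPM [307, 418] and 110 CPM [86.1, 139], a ratio of 1.70 [1.29, 2.13]. In cDC1 it was 104 CPM [76.9, 137] and 33.8 CPM [20.4, 52.8], a ratio of 1.61 [0.83, 2.46], which was 2.59 under the marker gate. In classical monocytes it was 265 and 253 CPM, a ratio of 0.07 [-0.24, 0.37]. Under the marker gate the ratio was 0.62 [0.39, 0.85] in classical and 1.38 [1.05, 1.72] in nonclassical monocytes, against 0.05 [-0.52, 0.60] for the nonclassical cluster. The C1q macrophage marker list was also higher in BLM cDC2 (315 against 103 CPM) and cDC1 (522 against 51.6 CPM). The alveolar list stood at 3587 against 331 CPM in cDC1 and at 976 against 238 CPM in cDC2. In BLM cDC1 5 of its 8 markers were at 0 and its UMIs were nearly all of Plet1, with 1725 UMIs in 52 of 56 cells. In BLM cDC2 Plet1 alone stood at 937 CPM, with 441 UMIs in 28 of 77 cells. Every other marker of the alveolar list was lower in the BLM than in the naive library in both classes. The part of these lists in the ratios was not tested. The cluster called cDC2 was led by Cd209a, Mgl2 and Clec10a, markers of cDC2, although its plasmacytoid dendritic cell score (2.73) was above its cDC2 score (2.289).

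In monocytes the called ratios of the abundant members pointed the other way. Ms4a4c in classical monocytes was lower in the BLM library by a log2 ratio of -1.03 [-1.25, -0.82], and by -1.94 [-2.14, -1.74] under the marker gate. In C1q macrophages it stood at 33.8 CPM in the BLM and 97.0 CPM in the naive library, a ratio of -1.52 [-1.93, -1.10]. That call depended on how the class was drawn: the ratio was 1.13 [-0.45, 3.43] under the marker gate, from 125 and 3 UMIs, and 0.04 [-0.92, 1.19] without integration. The C1q macrophage cluster did not hold the same mixture in both libraries. Of its 121 naive cells 70 passed the C1q gate, and these held 3 of its 73 naive Ms4a4c UMIs. Of its 466 BLM cells 390 passed the C1q gate, and these held 116 of its 155 BLM Ms4a4c UMIs. Ms4a6b was lower in nonclassical monocytes, at 106 against 225 CPM, with a ratio of -1.09 [-1.57, -0.64], and in classical monocytes its ratio of -0.98 [-1.28, -0.68] fell short of 2-fold. Under the marker gate these ratios were -2.78 [-3.33, -2.27] and -1.81 [-2.09, -1.54]. Ms4a6c was lower by less than 2-fold in both monocyte classes, at -0.48 [-0.60, -0.37] in classical and -0.62 [-0.79, -0.46] in nonclassical monocytes, and by -1.07 and -1.38 under the marker gate. Ms4a8a was higher in nonclassical monocytes, at 53.0 against 24.1 CPM, from 24 and 26 UMIs. Its log2 ratio was 1.14 [0.27, 1.99], against 0.80 [-0.22, 1.77] without integration and 2.86 [2.38, 3.37] under the marker gate, where the counts were 258 and 41 UMIs.

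In C1q macrophages Ms4a7 and Ms4a6c differed little, with log2 ratios of 0.24 [0.02, 0.47] and -0.10 [-0.26, 0.06]. The Ms4a7 ratio was not stable, since it was -1.10 with C1q macrophages gated by markers (653 BLM and 73 naive cells) and -1.17 without integration. The 70 naive cells of the cluster that passed the C1q gate held 175 of its 187 naive Ms4a7 UMIs, at 464 CPM. The 390 BLM cells of the cluster that passed it stood at 333 CPM. Of all genes tested in this class 4.29% were higher and 8.92% lower. Ms4a1 was lower in cDC2, where 25 naive UMIs came from 5 cells and 13 of them from 1 cell. Its ratio of -2.21 and that of Ms4a4b in the same class, -1.92, were -1.02 [-3.08, 0.65] and -0.80 [-2.17, 0.40] under the marker gate.

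**Figure D5:**
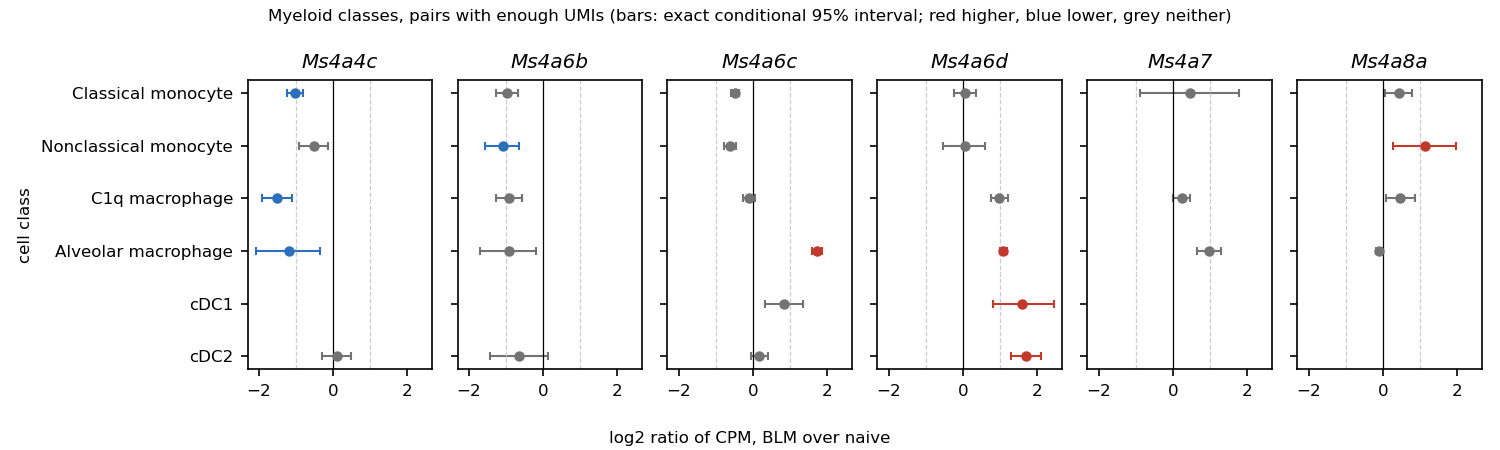
Log2 ratio of CPM, BLM over naive (horizontal axis), of 6 members in 6 myeloid classes (vertical axis), for pairs with enough UMIs; bars are exact conditional 95% intervals, dashed lines mark 2-fold, red points were called higher, blue lower and grey neither. Ms4a6d lies at or above 0 in all 6 classes, and Ms4a4c lies below 0 in monocytes and macrophages as clustered (in C1q macrophages it is 1.13 under the marker gate).

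Sequence shared with other genes, paralogues among them, bears on these counts. Of all 50-base stretches in the last 500 bases of the annotated transcripts, the end at which transcripts are captured, 11.1% of those of Ms4a4c and 4.22% of those of Ms4a4b also occurred in another gene. For Ms4a6c the share was 7.76%, for Ms4a6b 4.31%, and for the other 6 members 0. The other genes were Gm8369 and Ms4a4c for Ms4a4b, and Ms4a4b and Ms4a4d for Ms4a4c. They were Gm10212, Ms4a6c and Ms4a6d for Ms4a6b, and 1700086O06Rik, Gm44997, Ms4a6b and Prdm11 for Ms4a6c. How reads from such stretches were assigned is not given in the sources used here. Part of the Ms4a4b, Ms4a4c, Ms4a6b and Ms4a6c counts may therefore belong to another gene. NK cells held 2269 and 2414 CPM of Ms4a4b beside 28.5 and 21.8 CPM of Ms4a4c. Genes on the opposite strand overlap Ms4a1, Ms4a4c, Ms4a6c and Ms4a6b, and the strand setting of the counting is not given in the sources used here.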

How the data were processed

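For each library a table of raw UMI counts by cell and gene was deposited by the authors, with UMI errors corrected by their pipeline. Per the file headers and the submitters' notes these came from the BD WTA Rhapsody Analysis Pipeline 1.8 with GENCODE vM19 on GRCm38. A gene absent from a table was taken as 0. Both libraries passed through the same steps here, in R 4.3.3 with Seurat 5.3.0 and in python 3.11.15 with scanpy 1.11.5 and scipy 1.17.1. Barcodes were kept where they held at least 200 genes and no more than 15% mitochondrial UMIs, and the top 3% of Scrublet doublet scores of each library were left out, because the caller's own threshold marked only 0.177% and 1.55%. Libraries were integrated with CCA on 2000 variable genes, 30 dimensions and resolution 0.5, and T cells again with 20 dimensions. All 21 held-out genes (every Ms4a column, Tmem176a, Tmem176b and Tff1) took no part. Clusters were named from marker lists. Basophils or mast cells were gated per cell (3 or more of 9 markers), a step added after the design. The cluster led by Sparc, with endothelial and fibroblast genes, was left unnamed.

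Intervals are exact throughout: Poisson for levels in CPM, Clopper-Pearson for shares of cells, and conditional for ratios of CPM. These cover counting error only. With 1 library per group no test was made. All 10 members are named; for each except Ms4a4a, whose nearest genes are not reported here, the 3 nearest genes with 100 or more UMIs are named, and other family genes where they hold 10 or more UMIs. The ratio step was tested on simulated data. Positions come from GENCODE vM21 on the same build. The members and lists were chosen with earlier results of these data known.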

Additional observations from a re-analysis of the deposited data

Results flagged for a closer look

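Members whose log2 ratios of BLM over naive pointed opposite ways in different classes stood out, and these differences between classes were not tested. Ms4a6c was higher in alveolar macrophages (1.74 [1.61, 1.87]) and lower in nonclassical monocytes (-0.62 [-0.79, -0.46]). Ms4a4c was higher in CD8 T cells (0.81 [0.28, 1.35], 95 and 46 UMIs, short of 2-fold) and lower in C1q macrophages (-1.52 [-1.93, -1.10]). Neither side was kept throughout: in CD8 T cells the ratio was 0.32 [-0.58, 1.22] with doublets kept and 0.11 [-0.68, 0.87] without integration, and in C1q macrophages it was 1.13 [-0.45, 3.43] under the marker gate and 0.04 [-0.92, 1.19] without integration. The CD8 T cell ratio was 1.08 [0.45, 1.75] with a mitochondrial limit of 10%, 0.87 [0.29, 1.47] under the marker gate and 0.81 [0.27, 1.36] at resolution 1.0. The cytotoxic marker list in the CD8 cluster stood at 1926 CPM in the BLM and 737 CPM in the naive library. Ms4a8a was higher in nonclassical monocytes (1.14 [0.27, 1.99], and 0.80 [-0.22, 1.77] without integration) and lower in neutrophils (-2.09 [-3.61, -0.73], 7 and 16 UMIs, at about the level of B cells).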

How the results depend on the processing

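Ratios of the members in their leading classes were recomputed under 9 alternatives, which gave 89 values. Of these, 76 stayed within the counting interval of the reported ratio, 8 left it with the same sign, and 5 changed the sign of a ratio whose interval excluded 0. These 5 were Ms4a1 in B cells with a mitochondrial limit of 10% (0.0521), Ms4a8a in alveolar macrophages under the marker gate (0.44), and Ms4a7 in C1q macrophages under the marker gate (-1.10), without integration (-1.17) and without cells holding markers of 2 lineages when the macrophage lists were counted as 1 (-0.0722). Within the 76, Ms4a4a in classical monocytes, whose interval included 0, changed from 0.77 to -0.0548 under the marker gate and to -0.33 after thinning. The cause was not tested. The number of members with a leading class was 4 or 5 throughout, but the members were not always the same. Under the marker gate Ms4a4c no longer led by 2-fold, and Ms4a6b led in T cells. Ms4a8a did not lead by this rule without integration, nor did Ms4a2 after thinning to 1000 UMIs. Pairs higher in BLM numbered 12 under the marker gate. Pairs lower in BLM numbered 6 after thinning to 1000 UMIs, where fewer UMIs remain, and 8 when only pairs above a background class were kept. The last requirement and the counting of the macrophage lists as 1 were chosen after seeing the data. Ms4a8a had no ratio without integration, since 0 BLM cells were then called alveolar macrophages. No paired analysis was possible because each group was 1 library. Depth limits Ms4a2 and Ms4a4a most.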

Other observations

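Other genes of the family were read in few classes. Ms4a14 had 45 BLM and 16 naive UMIs in C1q macrophages, of 50 and 18 in all, at 9.82 and 21.3 CPM, a log2 ratio of -1.11 [-1.96, -0.19]. Ms4a4d had 47 and 14 UMIs, of 52 and 21 in all, in the cluster led by Sparc, at 119 CPM [87.2, 158] and 85.0 CPM [46.5, 143]. Its fibroblast marker list stood at 25220 CPM in the BLM library, although the cells were sorted as CD45+.

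Tmem176a and Tmem176b, related membrane proteins encoded outside the Ms4a cluster, shared their classes. In C1q macrophages Tmem176b stood at 307 CPM in the BLM and 745 CPM in the naive library, a log2 ratio of -1.28 [-1.42, -1.13], and Tmem176a at 237 and 597 CPM, a ratio of -1.33 [-1.49, -1.17]. In gamma delta T cells Tmem176a stood at 878 and 666 CPM and Tmem176b at 626 and 515 CPM. In activated CD4 T cells both were higher in the BLM library, Tmem176a with 59 and 2 UMIs and Tmem176b with 48 and 2 UMIs. That cluster did not hold the same mixture in both libraries. Its cytotoxic marker list stood at 1300 CPM in the BLM and 9485 CPM in the naive library, and its gamma delta list at 135 and 60.0 CPM. The part of this mixture in the Tmem176a and Tmem176b difference was not tested. Gm8369, which lies between Ms4a6c and Ms4a6b, stood at 475 and 447 CPM in B cells and 699 and 518 CPM in naive CD4 T cells.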
